A study of Mus musculus with 8 samples.

Results

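The genes described here encode 8 cell surface adhesion molecules of the immunoglobulin superfamily, taken by name from the 19493 endogenous genes counted in mouse embryonic fibroblasts (MEFs). Of these, 4 lie in the stretch of chromosome 16 that is duplicated in the Dp1Tyb mouse, a model of Down syndrome, namely Cxadr, Jam2, Ncam2 and Dscam. The other 4, Jam3, F11r, Ncam1 and Clmp, are relatives or binding partners that lie on other chromosomes and are present at the normal dose.

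RNAseq of poly(A) RNA was carried out on 4 WT and 4 Dp1Tyb MEF cultures from E14.5 embryos whose strain background is labelled C57BL/6J.129P2 and which the methods describe as bred to C57BL/6JNimr over many generations, and the duplication is designated Dp(16Lipi-Zbtb21)1TybEmcf. Every gene from Lipi to Zbtb21 is therefore expected in 3 copies in Dp1Tyb and in 2 copies in WT cells, and no other allele or treatment is named for either genotype. The methods describe bulk cultures of decapitated and eviscerated littermate embryos, so a culture can hold more than fibroblasts. A fixed volume of synthetic ERCC transcripts was added per cell number before RNA extraction, so each gene can be scaled either to these spike-ins (absolute normalisation) or to the other genes (relative normalisation), and the comparison asks whether the extra copy raises the RNA of each gene under both.

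Adhesion molecules of this superfamily carry extracellular immunoglobulin domains through which they bind molecules on the facing cell, and cytoplasmic tails that recruit scaffold proteins. The junctional adhesion molecules (JAMs) and the CTX group to which Cxadr and Clmp belong are known from tight junctions of epithelium and endothelium and from leukocyte passage across vessels. The NCAMs and Dscam are best known from the nervous system, where they act in axon growth and in the recognition of neurites, although Ncam1 is also made by mesenchyme.

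Total counts ran from 17698900 to 26471758 per library. The fibroblast label was borne out by its markers: the 10 listed genes, among them the matrix genes Fn1 (807 ± 67.5 RPKM in WT, SD, n = 4) and Col1a1 (777 ± 339 RPKM), were all tested, and their summed level ran from 22272 to 31831 CPM (counts scaled to sequencing depth) in WT and from 26079 to 31666 CPM in Dp1Tyb. Markers of other cell types were far lower in sum: 39.9 to 84.0 CPM for endothelium, 18.7 to 49.8 CPM for epithelium, 42.7 to 132.2 CPM for skeletal muscle, 66.3 to 106.0 CPM for neurons and glia, and 68.9 to 143.5 CPM for leukocytes over the 8 libraries. Of these lists, Tie1, Esrp1, Grhl2, Elavl3, Myod1, Myf5 and Pax7 were not analysed here. In WT replicate 2 and Dp1Tyb replicate 1 Xist counts were 36188 and 38867 against Ddx3y counts of 7 and 4, whereas the other 6 libraries held 9 to 60 Xist and 2547 to 3182 Ddx3y counts. Members that stand apart in these 2 libraries are given with and without them.

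The coding sequences of each family show how far a read can tell the members apart, since reads with several alignments were discarded before counting. Over the aligned coding bases Cxadr and Clmp were 51.9% identical, Jam2 and Jam3 53.0%, Jam2 and F11r 53.9%, Jam3 and F11r 53.5%, and Ncam1 and Ncam2 57.4%. The longest stretch shared by a duplicated gene and its relative is printed in capitals within its coding sequence (GRCm38, GENCODE M21 transcripts, 5′ to 3′), with 21 coding bases on either side in lower case and the position of the capitals:
Cxadr, chr16:78325270-78325287, plus strand: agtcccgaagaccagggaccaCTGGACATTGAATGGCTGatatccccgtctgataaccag
Clmp, chr9:40761011-40761028, plus strand: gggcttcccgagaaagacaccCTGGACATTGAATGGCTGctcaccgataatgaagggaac
Ncam2, chr16:81434881-81434894, plus strand: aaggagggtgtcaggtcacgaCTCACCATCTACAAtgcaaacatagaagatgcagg
Ncam1, chr9:49568423-49568436, minus strand: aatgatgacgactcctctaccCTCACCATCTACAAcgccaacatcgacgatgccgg
Jam2, chr16:84809421-84809431, plus strand: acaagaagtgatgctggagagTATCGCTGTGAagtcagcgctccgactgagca
Jam3, chr9:27101926-27101936, minus strand: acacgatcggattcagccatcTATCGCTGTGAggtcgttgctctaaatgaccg
All 6 stretches are exonic and coding, and they spanned 18, 14 and 11 bases in the Cxadr, Ncam2 and Jam2 pairs. No run of 50 bases in any annotated transcript of a member occurred in a transcript of another member. A duplicated gene and its relative were therefore separable at the length of the sequenced reads.

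Other genes overlapped some members. Exons of Btg3, a duplicated gene on the minus strand at chr16:78332637-78377192, cover 695 bases of Cxadr exons, and 6.78% of the 50-base runs of Cxadr transcripts lay in Btg3. For Jam3, 29.3% of such runs lay in the antisense gene Gm48796, which was not analysed here. Antisense or opposite-strand transcripts with counts also share 463 exon bases with Clmp (Gm16096, 0.862 ± 0.206 CPM in WT and 0.835 ± 0.370 CPM in Dp1Tyb; 5.93% of Clmp runs) and 417 with Ncam1 (Gm11149, 2.15 ± 0.856 and 2.19 ± 0.428 CPM; 3.06% of Ncam1 runs lay in other genes). The methods name a stranded library kit, but the strand option of the counting is not given in the sources used here. Reads from these shared bases may therefore have been assigned to either gene or to none. Jam2 had no such run.

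The members covered a wide range of levels when scaled to exon length. Ncam1 was the highest, at 49.5 RPKM on average over the 8 libraries (38.6 to 62.8), which placed it above 95.3% of the 16470 tested genes. Clmp followed at 16.8 RPKM (13.8 to 20.4), then Jam2 at 10.4 RPKM (4.74 to 16.9) and Jam3 at 9.24 RPKM (8.10 to 12.1). F11r was at 5.01 RPKM (3.43 to 6.14) and Cxadr at 4.56 RPKM (3.09 to 6.55), close to the middle of the tested genes, at the 56.4th and 54.4th percentile. Ncam2 was at 0.189 RPKM (0.105 to 0.352) and Dscam at 0.0305 RPKM (0.0168 to 0.0559). In this order the ranges of Clmp and Jam2, of Jam2 and Jam3, and of F11r and Cxadr overlapped when both genotypes were pooled. Within WT, Clmp (14.6 to 20.4 RPKM) and Jam2 (4.74 to 11.6) did not overlap, within Dp1Tyb they did, and Clmp exceeded Jam2 in 7 of the 8 libraries. The ranges of Jam2 and Jam3 and of F11r and Cxadr overlapped within each genotype, so neither pair differed beyond the spread over libraries, and on average Jam3 (9.11 RPKM) was above Jam2 (8.22 RPKM) in WT. The other neighbours were separated by a gap between their ranges, although the lowest Jam2 library, at 4.74 RPKM, lay within the ranges of F11r and Cxadr.

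**Figure D1:**
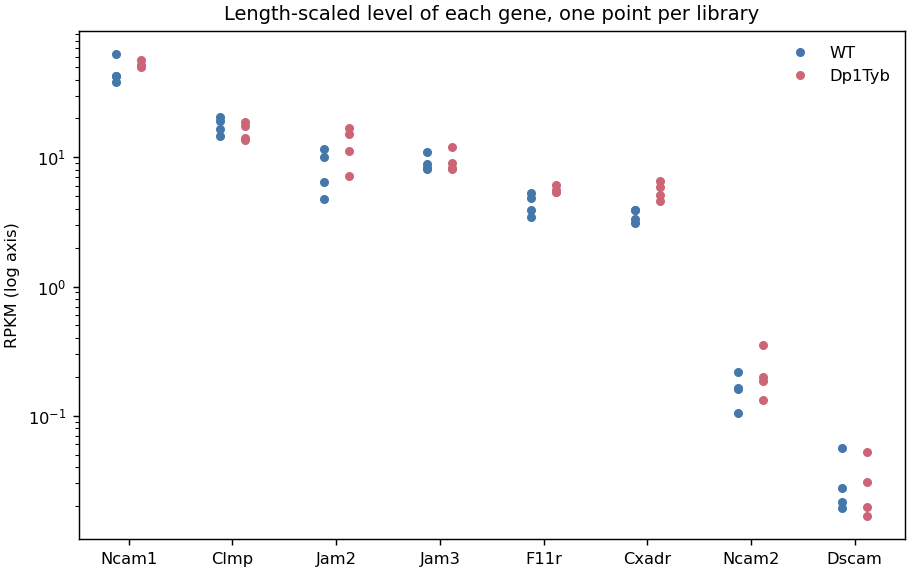
RPKM (counts scaled to depth and exon length, logarithmic axis) of the 8 adhesion genes, with a point for each WT (blue) and Dp1Tyb (red) library. Ncam1 stands highest with an average of 49.5 RPKM, and Ncam2 and Dscam lie far below the others, at 0.189 and 0.0305 RPKM.

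Cxadr (ENSMUSG00000022865, chr16:78301489-78359774, plus strand), which encodes the coxsackievirus and adenovirus receptor, was the member whose groups separated most clearly. Its relative expression was 22.9, 28.8, 24.8 and 29.2 CPM in WT replicates 1 to 4 and 48.5, 44.0, 37.7 and 34.1 CPM in Dp1Tyb replicates 1 to 4. The lowest Dp1Tyb value exceeded the highest WT value, a separation found for 1.64% of all tested genes and for 42% of the 112 tested genes of the duplicated region. The means were 26.4 ± 3.09 and 41.1 ± 6.40 CPM (SD, n = 4 each), and the raw counts behind them ran from 512 to 1253. The fitted log2 fold change was 0.64 with a standard error of 0.14 and a 95% interval of 0.32 to 0.95, which holds the 0.58 of a 3 to 2 ratio and leaves out 0. In edgeR's quasi-likelihood test its unadjusted p was 0.00110 and its adjusted p over all tested genes 0.441, so it was not called. DESeq2 on the same counts gave a log2 fold change of 0.65 with an adjusted p of 0.0329 and called it, among 0.328% of the genes tested there and 33% of those in the region. In bulk RNA of this kind, more cells that make a transcript and more transcript per cell cannot be told apart.

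Scaled to the spike-ins, Cxadr was 27.1, 25.4, 17.7 and 34.2 CPM in WT and 58.4, 30.3, 39.7 and 44.8 CPM in Dp1Tyb. Here Dp1Tyb replicate 2 fell below WT replicate 4, and 3 Dp1Tyb libraries lay above every WT library. Dp1Tyb exceeded WT by 0.73 on the log2 scale with a standard error of 0.33 and a 95% interval of 0.09 to 1.37 (edgeR unadjusted p 0.0247, adjusted p 1.00). The change was thus of similar size under both normalisations, with a wider interval under the spike-ins. Without WT replicate 2 and Dp1Tyb replicate 1, the log2 fold change of Cxadr was 0.59 under relative and 0.55 under spike-in scaling. The overlapping Btg3 gave 26.8 ± 6.81 CPM in WT and 43.8 ± 8.58 CPM in Dp1Tyb, a log2 fold change of 0.70 with a standard error of 0.21 (edgeR unadjusted p 0.00753, adjusted p 0.999). Whether reads from the shared bases contribute to the change of Cxadr was not tested.

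Clmp (ENSMUSG00000032024, chr9:40685962-40785319, plus strand), the relative of Cxadr known as an adhesion molecule linked to intestinal development, is not duplicated. It was at 66.9, 76.2, 87.7 and 93.6 CPM in WT and at 63.1, 64.8, 80.5 and 85.6 CPM in Dp1Tyb under relative scaling. The groups overlapped, with 2 Dp1Tyb libraries below every WT library. The log2 fold change was -0.14 with a 95% interval of -0.46 to 0.18 (edgeR adjusted p 0.999), an interval that leaves out 0.58. Under spike-in scaling it was -0.00 with an interval of -0.62 to 0.62, which holds 0.58.

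Because Cxadr and Clmp were counted in the same libraries, their ratio needs no scaling. Cxadr counts per Clmp count were 0.342, 0.378, 0.283 and 0.312 in WT and 0.767, 0.679, 0.469 and 0.399 in Dp1Tyb. Every Dp1Tyb ratio was above every WT ratio, although that of Dp1Tyb replicate 4 was only slightly so. The ratio averaged 0.329 ± 0.0407 in the WT and 0.578 ± 0.173 in the Dp1Tyb libraries (SD, n = 4 each), 1.76 times higher. The ratio carries the higher Cxadr and the lower Clmp values together and is given as a description.

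**Figure D2:**
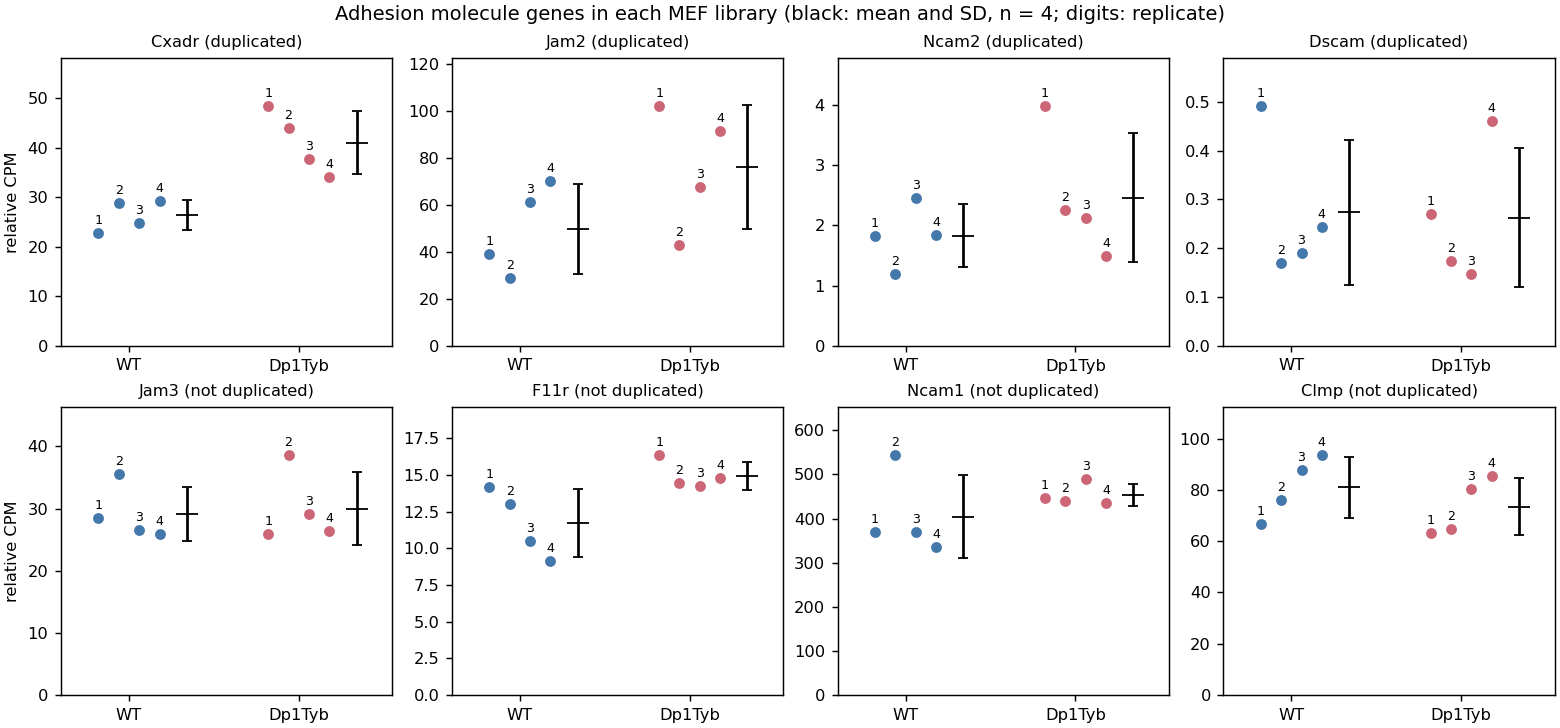
Relative CPM (TMM scaling) of each gene in every WT (blue) and Dp1Tyb (red) library, with replicate numbers beside the points and black bars for the mean and SD of 4 libraries. The genotypes do not overlap for Cxadr (34.1 to 48.5 against 22.9 to 29.2 CPM) and, narrowly, for F11r, whereas Jam2 spans 28.7 to 101.9 CPM with overlap.

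Jam2 (ENSMUSG00000053062, chr16:84774123-84825928, plus strand) encodes JAM-B, which binds JAM-C on facing cells and is a known endothelial molecule. It was at 39.1, 28.7, 61.0 and 70.0 CPM in WT and at 101.9, 43.0, 67.7 and 91.4 CPM in Dp1Tyb under relative scaling. Dp1Tyb replicates 1 and 4 lay above every WT library, replicate 3 lay between WT replicates 3 and 4, and replicate 2 lay below both of these. The means were 49.7 ± 19.1 and 76.0 ± 26.2 CPM (SD, n = 4 each), and the spread within WT was 38.5% of the mean where counting error alone would give 3.06%. Jam2 had a log2 fold change of 0.61, close to the 0.64 of Cxadr, but its standard error was 0.32 and its 95% interval, -0.10 to 1.32, held both 0 and 0.58. The unadjusted p was 0.0828 and the adjusted p 0.999 in edgeR. With the replicate number as a block they were 0.0104 and 0.385, and the standard error was 0.19.

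Under spike-in scaling Jam2 was 46.4, 25.3, 43.5 and 81.9 CPM in WT and 122.8, 29.6, 71.2 and 120.1 CPM in Dp1Tyb. The same 2 Dp1Tyb libraries lay above all WT libraries, and replicate 2 lay below 3 of the WT libraries. The log2 fold change was 0.80 with a standard error of 0.32 and an interval of 0.18 to 1.43, the largest of the members under this scaling (edgeR unadjusted p 0.0120, adjusted p 1.00). Of all tested genes, 1.17% reached an unadjusted p under 0.05 here, 0.85% with a higher level in Dp1Tyb, and of the tested region genes 43.8% did so with a higher level. The edgeR fit under this scaling pooled the spread over genes. Its interval therefore carries little of the spread of Jam2 itself, which was 48.0% of the mean in WT. DESeq2 gave Jam2 a standard error of 0.42 and an unadjusted p of 0.0573 under this scaling.

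The size of the Jam2 difference rested on a few libraries. WT replicate 2, the lowest, and Dp1Tyb replicate 1, the highest, are the 2 libraries with more Xist than Ddx3y counts. Without both, the log2 fold change of Jam2 was 0.25 with a standard error of 0.28 under relative scaling and 0.37 under spike-in scaling. Leaving out single libraries gave 0.43 to 0.83 under relative scaling, lowest without WT replicate 2, and 0.58 to 1.16 under spike-in scaling. Dp1Tyb replicate 1 also held the highest summed endothelial markers, 84.0 CPM against 41.2 to 54.2 CPM in the other Dp1Tyb and 39.9 to 63.2 CPM in the WT libraries. Of the 8 endothelial markers 7 had counts in every library, the most abundant being Kdr at 3.97 ± 1.37 RPKM in WT and 4.71 ± 2.29 RPKM in Dp1Tyb and Erg, itself duplicated, at 1.56 ± 0.424 and 2.00 ± 0.824 RPKM. None of the 7 tested reached an unadjusted p under 0.05 under either scaling, 4 of them, Pecam1, Cdh5, Tek and Emcn, had negative log2 fold changes from -0.33 to -0.13, the other 3, Kdr, Erg and Egfl7, had 0.25, 0.35 and 0.50, and the median of the list was -0.13 under relative scaling. The part of endothelial cells or of embryonic sex in the Jam2 values was not tested.

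Jam3 (ENSMUSG00000031990, chr9:27097384-27155421, minus strand) encodes JAM-C, the main binding partner of JAM-B, and is not duplicated. It was at 28.5, 35.5, 26.6 and 26.0 CPM in WT and at 25.9, 38.6, 29.1 and 26.4 CPM in Dp1Tyb. The groups overlapped over nearly their whole range, with means of 29.1 ± 4.38 and 30.0 ± 5.91 CPM. Jam3 had a log2 fold change of 0.04 with an interval of -0.32 to 0.40 under relative scaling and 0.10 with an interval of -0.53 to 0.74 under spike-in scaling (edgeR adjusted p 0.999 and 1.00). The sign of so small a value changed with the setting, to -0.01 under upper-quartile scaling. Without WT replicate 2, its highest WT library, and Dp1Tyb replicate 1, its lowest library, Jam3 had 0.22 with a standard error of 0.16 under relative and 0.15 under spike-in scaling. With all libraries, the interval under relative scaling leaves out 0.58 and that under spike-in scaling does not.

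F11r (ENSMUSG00000038235, chr1:171437535-171464603, plus strand) encodes JAM-A, the JAM of epithelial tight junctions and platelets. Although it is not duplicated, its relative expression was 14.21, 13.0, 10.5 and 9.13 CPM in WT and 16.4, 14.4, 14.27 and 14.8 CPM in Dp1Tyb. The genotypes did not overlap, but by a margin of only 14.27 against 14.21 CPM at the closest, a separation that 1.64% of all tested genes also showed. The log2 fold change was 0.35 with a standard error of 0.16 and an interval of 0.000424 to 0.70 (edgeR unadjusted p 0.0498, adjusted p 0.999). Without the 2 libraries rich in Xist the relative value was 0.36 and its unadjusted p in edgeR 0.0781. Under spike-in scaling the groups overlapped, at 16.9, 11.5, 7.50 and 10.7 CPM in WT and 19.7, 9.92, 15.0 and 19.4 CPM in Dp1Tyb. The log2 fold change was then 0.46 with an interval of -0.23 to 1.15 and an unadjusted p of 0.188 in edgeR. Leaving out single libraries gave 0.30 (without WT replicate 3) to 0.70 (without WT replicate 1) under this scaling. Summed epithelial markers were also highest in Dp1Tyb replicate 1, the library with the highest F11r, at 49.8 CPM against 18.7 to 27.8 CPM in the others. Of the 8 epithelial markers 6 had counts and 4 were tested, among them Krt19 (6.14 ± 0.742 RPKM in WT, 11.02 ± 8.79 RPKM in Dp1Tyb) and Krt18 (3.33 ± 1.98 and 3.90 ± 1.99 RPKM). Krt8 and Esrp2 had log2 fold changes of -0.05 and -0.36, and the median of the 4 was 0.08 under relative scaling. Krt19 alone reached an unadjusted p under 0.05, and only under spike-in scaling, where 0.85% of all tested genes were higher in this sense. That edgeR fit pooled the spread over genes, whereas Krt19 had an SD of 8.79 around a mean of 11.02 RPKM in Dp1Tyb. Epcam and Cdh1, defining genes of epithelium that did not pass the filter, were at 0.230 ± 0.0566 and 0.0908 ± 0.0399 RPKM in WT and at 0.173 ± 0.0590 and 0.0546 ± 0.0176 RPKM in Dp1Tyb, and the part of epithelial cells in the F11r values was not tested.

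The JAMs together can be described by the share each takes of their summed RPKM in a library. The share of Jam2 was 31.2%, 22.9%, 45.2% and 50.1% in WT and 54.2%, 28.9%, 43.6% and 52.3% in Dp1Tyb. On average it was 37.3 ± 12.5% for WT and 44.8 ± 11.5% for Dp1Tyb libraries (SD, n = 4 each), a difference smaller than the spread within either genotype. The share of Jam3 averaged 42.2 ± 8.26% and 34.8 ± 10.3%, and that of F11r 20.5 ± 5.08% and 20.5 ± 1.25%. Jam2 exceeded Jam3 in RPKM in 5 libraries, of which 2 were WT and 3 Dp1Tyb. Replicate 2 of each genotype had both the lowest Jam2 and the highest Jam3 of its genotype. Over the 8 libraries the Pearson r of log2 relative CPM between Jam2 and Jam3 was -0.76, a description over points that share their scaling. Without replicate 2 of either genotype the log2 fold change of Jam2 was 0.62 under relative and 0.88 under spike-in scaling, near the values with all libraries. Jam2 counts per Jam3 count were 1.37, 0.808, 2.30 and 2.70 in WT and 3.93, 1.12, 2.32 and 3.47 in Dp1Tyb, with 2 Dp1Tyb libraries above every WT library.

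**Figure D3:**
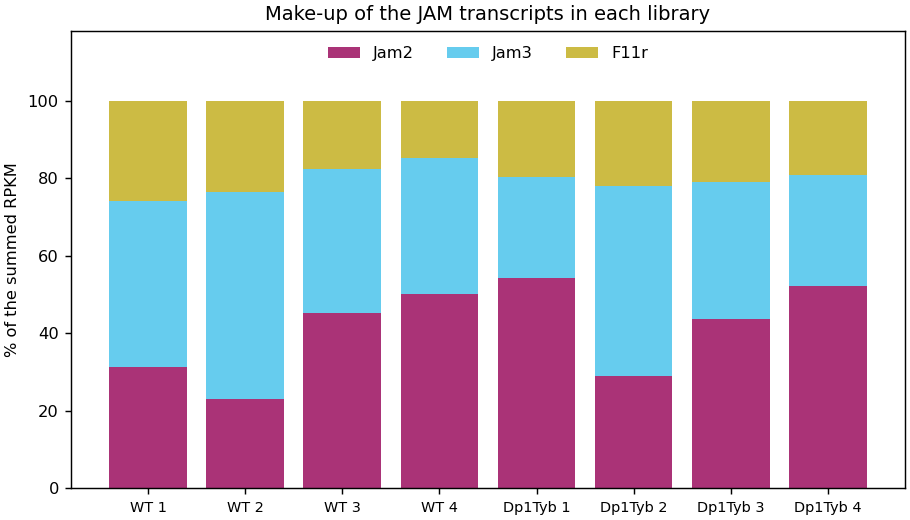
Share (%) of Jam2 (purple), Jam3 (blue) and F11r (yellow) in the summed RPKM of the JAMs in each library. Jam2 takes 22.9% to 50.1% in WT and 28.9% to 54.2% in Dp1Tyb libraries, so the genotypes overlap.

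Ncam1 (ENSMUSG00000039542, chr9:49502136-49798925, minus strand), a homophilic adhesion molecule that carries polysialic acid in the embryo, is not duplicated and was the most abundant member. It was at 369.7, 543.9, 369.2 and 334.8 CPM in WT and at 446.5, 439.4, 489.6 and 435.3 CPM in Dp1Tyb under relative scaling. WT replicate 2 lay above all Dp1Tyb libraries and the other WT libraries lay below them. The log2 fold change was 0.16 with an interval of -0.18 to 0.50 (edgeR adjusted p 0.999), and leaving out single libraries gave 0.08 (without WT replicate 4) to 0.35 (without WT replicate 2, standard error 0.11, edgeR unadjusted p 0.0103, adjusted p 0.787). It was also 0.35 without WT replicate 2 and Dp1Tyb replicate 1. Under spike-in scaling the values were 439, 480, 263 and 391 CPM in WT and 538, 302, 515 and 572 CPM in Dp1Tyb. There 3 Dp1Tyb libraries lay above every WT library, where 3.84% of tested genes had 3 or more above (6.45% under relative scaling). The log2 fold change was 0.29 with an interval of -0.33 to 0.92. Leaving out single libraries gave 0.14 (without WT replicate 3) to 0.47 (without Dp1Tyb replicate 2). Without the libraries numbered 2 it was 0.57 with a standard error of 0.33, and 0.35 under relative scaling.

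Ncam2 (ENSMUSG00000022762, chr16:81200697-81626828, plus strand), the duplicated relative of Ncam1 known from olfactory axons, was counted at 41, 28, 52 and 38 reads in WT and 103, 39, 43 and 26 reads in Dp1Tyb. These are 1.83, 1.19, 2.46 and 1.84 CPM against 3.98, 2.25, 2.12 and 1.5 CPM under relative scaling. Dp1Tyb replicate 1 alone lay above every WT library, and replicate 4 lay below 3 of them. The log2 fold change was 0.44 with a standard error of 0.34 and an interval of -0.31 to 1.19 (edgeR unadjusted p 0.218, adjusted p 0.999), and 0.57 with an interval of -0.33 to 1.47 under spike-in scaling. Without Dp1Tyb replicate 1 the values were 0.10 and 0.11. Without that library and WT replicate 2, the other library with more Xist than Ddx3y counts, they were -0.06 and -0.08, so the direction rested on these libraries. Counting error alone would give a spread of 15.9% in WT and 13.8% in Dp1Tyb, against 28.4% and 43.3% observed. Ncam2 counts were 0.00483 ± 0.00190 per Ncam1 count in WT and 0.00545 ± 0.00241 in Dp1Tyb.

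Dscam (ENSMUSG00000050272, chr16:96590840-97170752, minus strand), which acts in the self-recognition of neurites and is among the best studied genes of the region, was close to the limit of these libraries. It was counted at 11, 4, 4 and 5 reads in WT and at 7, 3, 3 and 8 reads in Dp1Tyb, 45 reads in all. It did not pass the filter on low counts and was not tested in the main comparison. In a fit without the filter its log2 fold change was -0.07 with a standard error of 0.52 under relative and 0.04 with a standard error of 0.70 under spike-in scaling. A change of the size of a 3 to 2 ratio in Dscam was not detectable at this depth.

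Across the members, 7 of 8 passed the filter, 3 of them duplicated. At an adjusted p under 0.05 edgeR called 0 of the 7 under either scaling, where it called 0.0182% of all tested genes under relative and 0.0121% under spike-in scaling. At an unadjusted p under 0.05 it found 2 members under relative scaling, Cxadr and F11r, against 4.27% of all genes in either direction and 1.74% with a higher level in Dp1Tyb, and 2 under spike-in scaling, Cxadr and Jam2, against 1.17% in either direction and 0.85% with a higher level. Under relative scaling the unadjusted p of Cxadr stayed under 0.05 in all 18 alternatives and that of F11r in 8 of 18, being lost in 6 of the 8 fits without a single library. That of Jam2 came under 0.05 in 4 of the 18 and that of Ncam1 in 3 of them. Under spike-in scaling it stayed so in 13 of 17 alternatives for Cxadr, lost without WT replicate 2, WT replicate 3 or Dp1Tyb replicate 1, and in 11 of 17 for Jam2, lost with DESeq2 and without any of these or Dp1Tyb replicate 4, and for both genes without the 2 libraries rich in Xist. DESeq2 called 1 member under relative scaling, Cxadr, and 0 under spike-in scaling, where it called 0.0122% of all genes, and limma-voom called 0 under either. The median log2 fold change of the 3 duplicated members was 0.61 under relative and 0.73 under spike-in scaling, and that of the 4 other members was 0.10 and 0.20. The median over all tested genes was 0.01 and 0.11.

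Set among the 112 tested genes of the duplicated region (chr16:75540514-97962622), Cxadr, Jam2 and Ncam2 did not stand out, and Dscam, which was not tested, had no rank. The median log2 fold change of the region was 0.54 with quartiles of 0.25 and 0.71 under relative scaling, and 0.64 with quartiles of 0.40 and 0.80 under spike-in scaling. From the highest fold change down, Cxadr ranked 40, Jam2 45 and Ncam2 69 under relative scaling, and 40, 29 and 67 under spike-in scaling. All of these values lay between the quartiles of the region. An unadjusted p under 0.05 with a higher level in Dp1Tyb was reached by 53.6% of the region's genes under relative scaling, among them Cxadr but neither Jam2 nor Ncam2.

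**Figure D4:**
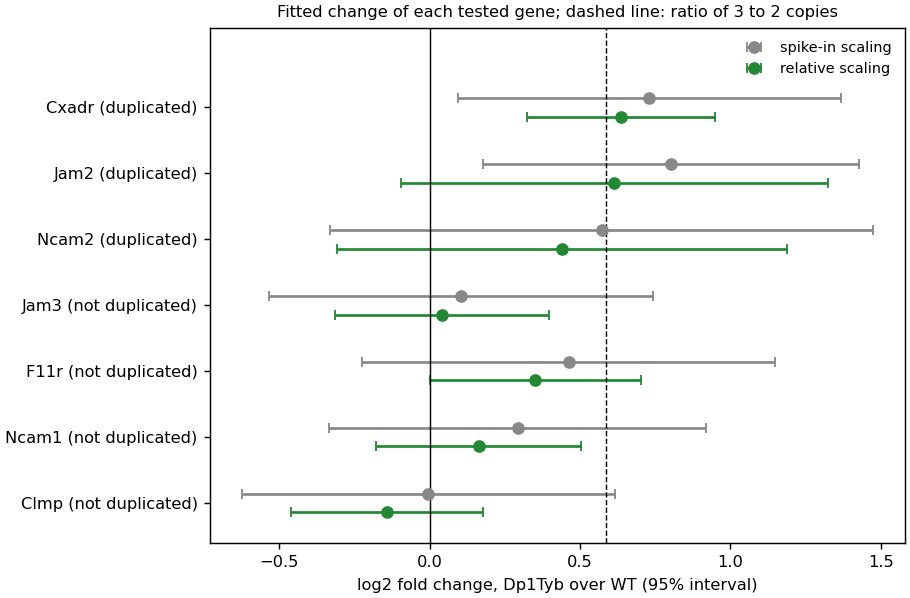
Fitted log2 fold change of Dp1Tyb over WT with its 95% interval for each tested gene under spike-in (grey) and relative (green) scaling; the dashed line marks 0.58, the ratio of 3 to 2 copies. The relative interval of Cxadr (0.32 to 0.95) leaves out 0, as does, by 0.000424, that of F11r, those of Jam3, Ncam1 and Clmp leave out the dashed line, and those of Jam2 and Ncam2 hold both.

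**Figure D5:**
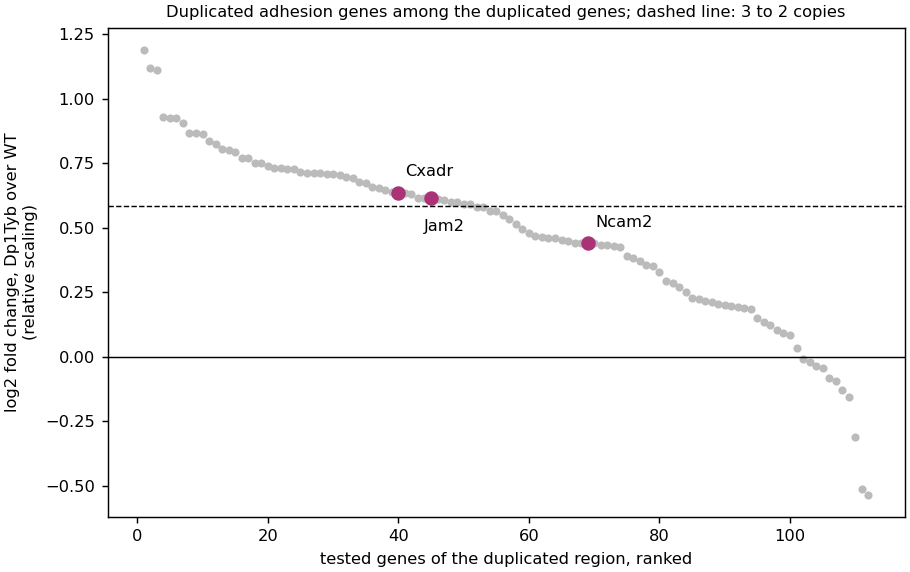
Log2 fold change (relative scaling) of the 112 tested genes of the duplicated region, ranked from highest to lowest, with the duplicated adhesion genes in purple; the dashed line marks the ratio of 3 to 2 copies. Cxadr (0.64) and Jam2 (0.61) lie just above the line and Ncam2 (0.44) below it.

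The genes whose levels followed each member most closely over the 8 libraries were found by the Pearson r of log2 relative CPM, among about 11000 genes counted at 100 reads or more on average. With so few libraries and so many genes high values arise readily, and they are given as a description. The closest were Atxn10 (0.96) and Plpp2 (0.95) for Cxadr, Gm6311 (0.99) and Abhd6 (0.98) for Jam2, and Cby1 and Ccdc90b (0.96 each) for Ncam2. For the members outside the region they were Srsf7 and Nup37 (0.99 each) for Jam3, Rpusd1 (0.97) and Aacs (0.96) for F11r, Hes1 and Nup188 (0.97 each) for Ncam1, and Tspyl2 and Irs2 (0.98 each) for Clmp. None of these 14 genes is duplicated, and none is another member.

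Related families and partners of the members are given under relative scaling unless stated. Under spike-in scaling 0 of these lists' genes were called by edgeR. Cxadr and Jam2 alone reached an unadjusted p under 0.05 there, as did 1.17% of all tested genes. Of 14 CTX and JAM genes 9 had counts and 8 were tested, with 0 called by edgeR. An unadjusted p under 0.05 was reached by 2, the Cxadr and F11r described above. Of all tested genes 4.27% reached such a p, 1.74% with a higher level in Dp1Tyb. The median log2 fold change of the 8 CTX and JAM genes was -0.02 under relative scaling. Igsf11, a relative of Cxadr, was at 2.74 ± 2.14 RPKM in WT and 2.40 ± 1.25 RPKM in Dp1Tyb. Igsf5, Jaml, Gpa33, Vsig1 and Vsig2 were not analysed here.

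Of 18 NCAM, DSCAM and L1 relatives 13 were tested, and none had an unadjusted p under 0.05. Alcam, an adhesion molecule of activated leukocytes and mesenchyme, was at 15.8 ± 2.65 RPKM in WT and 18.9 ± 6.99 RPKM in Dp1Tyb. Nfasc, known from the axon, had a log2 fold change of -0.59 with a standard error of 0.35. Among 8 tested nectins and CADMs, adhesion molecules of the same superfamily, Cadm1 alone had an unadjusted p under 0.05. It was lower in Dp1Tyb with a log2 fold change of -0.47 and a standard error of 0.19 (edgeR unadjusted p 0.0352, adjusted p 0.999). Of all tested genes 2.53% were lower in this sense. Under spike-in scaling the unadjusted p of Cadm1 was 0.276 in edgeR. The more abundant Pvr and Nectin2 had log2 fold changes of 0.13 and 0.04, and Cadm2 had 0.25.

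Of 25 cytoplasmic partners of the JAMs and Cxadr 24 were tested and none had an unadjusted p under 0.05. The most abundant were Rap1b, a small GTPase of adhesion, at 84.0 ± 13.3 RPKM in WT and 89.1 ± 8.22 RPKM in Dp1Tyb, and the junction scaffold Tjp1, at 28.4 ± 3.57 and 30.6 ± 2.19 RPKM. The smallest p-values of this list belonged to the polarity kinase Prkci and the scaffold Magi2, with log2 fold changes of 0.15 and -0.39. Of 17 partners in NCAM and DSCAM signalling, all tested, Fgfr2, a growth factor receptor, was the single gene with an unadjusted p under 0.05. It was at 5.88 ± 0.772 RPKM in WT and 4.57 ± 0.537 RPKM in Dp1Tyb (log2 fold change -0.37, edgeR unadjusted p 0.0178, adjusted p 0.999). Of all tested genes 4.27% had such a p in either direction and 2.53% with a lower level in Dp1Tyb. Fgfr1, through which Ncam1 is known to signal, had a log2 fold change of -0.02 at a level of 43.0 ± 4.77 and 42.4 ± 7.03 RPKM, the spectrin gene Sptbn1 had 0.11, and the NCAM ligand gene Gdnf had -0.44 with a standard error of 0.30. Of 16 claudins and MARVEL proteins 8 had counts and 5 were tested, none with an unadjusted p under 0.05, Cldn12 being highest at 11.5 ± 0.813 and 14.4 ± 3.23 RPKM and Cldn1 having a log2 fold change of -0.51 with a standard error of 0.31.

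Among the integrins that bind JAMs, 5 of 6 were tested. Itgb1, the β subunit shared by most fibroblast integrins, was at 444 ± 87.6 RPKM in WT and 499 ± 40.0 RPKM in Dp1Tyb. The leukocyte integrin genes Itgam and Itgb2, whose product binds JAM-C, had lower values in Dp1Tyb with an unadjusted p under 0.05 under relative scaling (0.00982 and 0.0290 in edgeR), and 2.53% of all tested genes were lower in this sense. Under spike-in scaling their unadjusted p was 0.227 and 0.139. Itgam was at 1.94 ± 0.225 RPKM in WT and 1.34 ± 0.222 RPKM in Dp1Tyb, its highest Dp1Tyb value being below its lowest WT value, as for 1.52% of tested genes (log2 fold change -0.54, standard error 0.17, edgeR adjusted p 0.999). Itgb2 was at 3.56 ± 0.798 and 2.27 ± 0.804 RPKM. All 6 leukocyte markers also had lower values in Dp1Tyb with an unadjusted p under 0.05 under relative scaling and 1, Ptprc, under spike-in scaling, where 0.316% of all tested genes were lower in this sense, and none had an adjusted p under 0.05. Their sum was 112.2 to 143.5 CPM in WT and 68.9 to 102.4 CPM in Dp1Tyb, with Cd68 at 33.5 ± 9.25 and 21.6 ± 6.93 RPKM and Laptm5 at 8.27 ± 1.73 and 5.48 ± 1.07 RPKM. The part of leukocytes in the integrin values was not tested.

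Of the 8 tested neuronal and glial genes Nes alone had an unadjusted p under 0.05, with a log2 fold change of -0.41 under relative scaling. There 2.53% of all tested genes were lower in this sense. Under spike-in scaling none of the 8 had such a p. Tubb3 was at 11.6 ± 6.07 RPKM in WT and 15.2 ± 7.60 RPKM in Dp1Tyb. All 4 tested skeletal muscle markers had positive log2 fold changes, with a median of 0.77 under relative and 0.87 under spike-in scaling. Under relative scaling Chrna1 alone had an unadjusted p under 0.05, with a log2 fold change of 0.81, and under spike-in scaling Chrna1, Des and Myh3 did, with 0.96, 0.78 and 1.24, where 1.74% and 0.85% of all tested genes were higher in this sense under relative and spike-in scaling. The spike-in p-values rest on a spread pooled over genes, whereas Des and Myh3 varied widely between libraries. Myh3, the embryonic myosin, was at 0.439 ± 0.216 RPKM in WT and 0.908 ± 0.518 RPKM in Dp1Tyb, and Des at 3.03 ± 2.33 and 5.03 ± 3.05 RPKM. Their sum over the 5 markers with counts was 42.7 to 69.6 CPM in WT and 44.1, 88.7, 81.5 and 132.2 CPM in Dp1Tyb replicates 1 to 4, so that 3 Dp1Tyb libraries lay above every WT library. The part of muscle cells in the members' values was not tested.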

How the data were processed

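Poly(A) RNA of 8 MEF cultures was sequenced as paired ends. According to the methods and the submitters' processing notes, the authors trimmed the reads with Trim Galore, aligned them with TopHat2 2.0.12 to GRCm38 with the ERCC sequences added, discarded reads with several alignments and produced the deposited raw counts per gene with htseq-count. The annotation release and strand option are not given in the sources used here. Normalised values and a table of the authors' own comparison by DESeq2 1.6.3 (fold changes and p-values) were not used. Groups and replicate numbers came from the labels, which do not tie a library to an embryo, so p-values refer to the spread between these libraries. In the main edgeR fit under spike-in scaling this spread was pooled over genes. Its p-values and intervals therefore carry little of a gene's own spread. Jam2 and Cxadr had standard errors of 0.32 and 0.33 there, with spreads within WT of 48.0% and 25.9% of the mean.

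GENCODE M21 on GRCm38, which holds 19318 of the gene IDs and lacks 175, gave positions and exon lengths. Low counts were removed with filterByExpr, leaving 16470 genes. Dp1Tyb was compared with WT in edgeR 4.0.16 (R 4.3.3) with its quasi-likelihood test, two-sided, with median-of-ratios factors over 63 spike-ins or TMM factors over endogenous genes, and the threshold was an adjusted p (Benjamini-Hochberg over all tested genes) under 0.05. Intervals are 95% intervals of the fit. CPM and RPKM are counts scaled by these factors, RPKM with the TMM factors and the exon length. The fitting was tested on simulated counts in which every gene had the same spread beyond counting error. Genes that differ in spread were not covered. Library pairs of a genotype differed by a chi-square per degree of freedom of 9.54 to 86.9, so none was a duplicate, and for the tested members counting error was below the replicate spread, nearest to it for F11r in Dp1Tyb (5.73% against 6.39%). Alternatives were DESeq2 1.42.0, limma-voom (limma 3.58.1), other scalings and filters, an adjusted p under 0.01, the replicate number as a block and leaving out libraries.

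The members, gene lists and tests were chosen with earlier results of these data known. Besides the members, the text names from each list the 2 most abundant genes and, for families and partners, the 2 with the smallest p, the 2 genes most like each member, genes that overlap a member and, chosen after their values were seen, Igsf11, Pecam1, Cdh5, Tek, Emcn, Egfl7, Krt8, Esrp2, Epcam, Cdh1, Ptprc and Myh3.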

Additional observations from a re-analysis of the deposited data

Results flagged for a closer look

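The relative CPM of Ncam1 in WT replicate 2 stood apart from the other WT libraries. Its gap to the nearest of them was 0.833 of the range of the group, above Dixon's 95% critical value for 4 samples. It was the single such value among 28 groups of libraries examined, and chance gives about 1 in 20.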

How the results depend on the processing

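The members' log2 fold changes kept their direction under the alternatives run, except for Jam3, Clmp and Ncam2. Jam3 reached -0.0067 under upper-quartile scaling, and leaving out single libraries gave -0.10 to 0.16 (relative) and -0.053 to 0.20 (spike-in). Clmp under spike-in scaling was 0.031 with TMM over the spike-ins, 0.13 without the libraries numbered 2 and -0.21 to 0.20 without single libraries. Ncam2 was -0.062 (relative) and -0.079 (spike-in) without the 2 libraries with more Xist than Ddx3y counts. These last 2 sets of libraries were chosen after seeing the data. Cxadr passed the threshold with DESeq2 under relative scaling (log2 fold change 0.65, 1 member called), and its adjusted p ran from 0.0329 to 1 over the alternatives.

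Counts of genes called were unstable. From 2 with spike-in scaling they became 7 with limma-voom, 0 with at least 10 counts in every library, 5 without the libraries numbered 2, 5 without those rich in Xist and 2 to 8 without single libraries. From 3 with relative scaling they became 1 at an adjusted p under 0.01, 54 with DESeq2, 5 with limma-voom, 0 with at least 10 counts in every library, 1 without the libraries numbered 2, 18 without those rich in Xist and 1 without any single library. The cause was not tested.

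Replicate numbers are shared between genotypes, but same-numbered libraries did not all deviate together (correlations 0.38, 0.61, -0.03 and 0.39), so they were not treated as pairs. WT replicates 1, 2 and 4 correlated best with the Dp1Tyb library of their own number, and WT replicate 3 with Dp1Tyb replicate 4. With the replicate block 9 genes were called with spike-in and 7 with relative scaling, 0 of them members. Jam2 then had 0.62 with a standard error of 0.19 and an adjusted p of 0.385 (edgeR, relative scaling). Dscam, with 45 reads in all, could not be judged at this depth.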
